A study of Homo sapiens with 12 samples.

Results

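The 10 transcripts described here encode 6 Eph receptors (EPHA2, EPHA3, EPHA4, EPHB1, EPHB2 and EPHB4) and 4 ephrin ligands (EFNA1, EFNA5, EFNB1 and EFNB2). They were taken by gene symbol from the RNA-seq tables of 2 human melanoma cell lines, COLO858 and MMACSF, and all 10 were found among the 23273 genes of each table. In each line, 2 libraries came from cells in DMSO (the drug vehicle), 2 from cells held for 24 h in 0.2 μM vemurafenib, an inhibitor of mutant RAF, and 2 from cells held for 48 h at the same dose, which makes 12 libraries in 6 groups. COLO858 cells were kept in RPMI medium and MMACSF cells in DMEM/F12, so line and medium cannot be told apart, and the labels do not say at which time the DMSO cells were harvested. The 24 h and 48 h comparisons within a line share their DMSO libraries. Replicates were plated as 2 per condition, nothing says that they came from separate starting cultures, and p-values measure only the spread between these samples.

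Eph receptors are the largest family of receptor tyrosine kinases. They are activated when they meet ephrins on the membrane of a neighbouring cell: A-type ephrins are held by a lipid anchor and bind mostly EphA receptors, whereas B-type ephrins span the membrane, bind mostly EphB receptors and signal back into the cell that carries them. The system steers axon growth and the migration of neural crest cells, the embryonic source of melanocytes, and its members act on adhesion, repulsion and invasion of melanoma cells.

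Values are FPKM (fragments scaled by transcript length and by the fragments mapped in the library), a level per length. The read depth behind them is unknown, and the FPKM sum, which is not a depth, ran from 670310 to 1013040 per library. A single small RNA, MIR4461, took 14.1% to 18.96% of that sum in the 6 libraries numbered 1 and 25.8% to 43.4% in the 6 numbered 2, and its part in the results was not tested. The melanocytic markers SOX10 (159.7 to 453.3 FPKM), MITF (56.2 to 268.3 FPKM) and S100B (113 to 1038 FPKM) were well above 1 FPKM in every library, while TYR and MLANA, which encode pigment cell proteins, were at or under 1.21 FPKM in COLO858. None of 6 endothelial markers reached a group mean of 1 FPKM, only 1 of 6 leukocyte markers did, and KRT5 and CD3E were at 0 in all 12 libraries. Of 6 epithelial markers 3 passed 1 FPKM in each line (summed level 11.2 to 72.3 FPKM in COLO858 and 37.2 to 58.0 FPKM in MMACSF), and of 6 fibroblast markers 4 did in COLO858 and 3 in MMACSF (8.47 to 34.1 and 20.2 to 79.3 FPKM). Some of these sums moved with treatment: that of 8 melanocytic markers was 702 to 717 FPKM in COLO858 in DMSO and 3922 to 4158 FPKM in its treated libraries, and 11160 to 11373 FPKM against 15589 to 17555 FPKM in MMACSF. In COLO858 most of that rise was DCT, with a mean of 267 FPKM in DMSO and 2150 FPKM at 48 h, where MITF averaged 67.7 and 67.3 FPKM. Epithelial markers summed to 62.8 to 72.3 FPKM in COLO858 in DMSO and 11.2 to 24.6 FPKM after treatment. Most of this was KRT18, with a mean of 61.3 FPKM in DMSO and 9.04 FPKM at 48 h. Fibroblast markers summed to 8.47 to 11.5 FPKM in COLO858 in DMSO and 17.6 to 34.1 FPKM after treatment. From DMSO to 48 h, mean LUM rose from 6.78 to 20.5 FPKM and COL3A1 from 0.165 to 6.56 FPKM, while COL1A2 fell from 2.62 to 0.113 FPKM. In MMACSF the fibroblast sum was 58.0 to 79.3 FPKM in DMSO, 45.3 to 53.6 FPKM at 24 h and 20.2 to 29.1 FPKM at 48 h. The epithelial sum was 58.0 FPKM in DMSO, 37.2 to 37.9 FPKM at 24 h and 50.2 to 50.9 FPKM at 48 h. Within it, mean KRT18 fell from 31.2 FPKM in DMSO to 11.5 FPKM at 48 h, while CDH1 rose from 23.9 to 36.3 FPKM. The part of these shifts in the results below was not tested.

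The promoters of 4 of the genes are shown first, so that each change can be set beside the DNA at the gene's start. Of these, EPHB1, EFNA1 and EPHA4 each had a change that passed the main test described below, and EPHA2 had none. Each run is the 250 bases before a RefSeq transcription start on the coding strand (build GRCh38.p14), 5′ to 3′, and EPHA4 has a pair of listed starts. Capitals mark matches on either strand to GGGCGG (a GC box) or TGACGTCA (a cyclic AMP response element), and overlapping matches run together.
EPHB1 (chr3:134795010-134795259, plus strand): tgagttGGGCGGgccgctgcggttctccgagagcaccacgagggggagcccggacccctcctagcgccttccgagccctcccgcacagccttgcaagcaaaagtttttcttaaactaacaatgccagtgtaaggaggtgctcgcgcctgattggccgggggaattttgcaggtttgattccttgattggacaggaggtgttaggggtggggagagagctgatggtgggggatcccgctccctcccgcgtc
EFNA1 (chr1:155127626-155127875, plus strand): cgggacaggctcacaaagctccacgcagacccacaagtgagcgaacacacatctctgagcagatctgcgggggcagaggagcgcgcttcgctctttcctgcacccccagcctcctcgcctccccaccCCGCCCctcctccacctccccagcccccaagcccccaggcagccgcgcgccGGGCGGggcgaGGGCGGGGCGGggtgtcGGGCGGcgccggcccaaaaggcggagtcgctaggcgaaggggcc
EPHA2 (chr1:16156070-16156319, minus strand): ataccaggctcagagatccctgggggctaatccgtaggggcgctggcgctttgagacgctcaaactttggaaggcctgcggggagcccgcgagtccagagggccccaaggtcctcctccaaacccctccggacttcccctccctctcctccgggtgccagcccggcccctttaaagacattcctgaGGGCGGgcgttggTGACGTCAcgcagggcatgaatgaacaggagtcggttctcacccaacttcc
EPHA4, first start (chr2:221574203-221574452, minus strand): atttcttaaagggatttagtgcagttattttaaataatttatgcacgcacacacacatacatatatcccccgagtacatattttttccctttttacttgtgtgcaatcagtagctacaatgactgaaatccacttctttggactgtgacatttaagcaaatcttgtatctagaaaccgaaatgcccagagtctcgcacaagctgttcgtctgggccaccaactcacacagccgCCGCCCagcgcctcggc
EPHA4, second start (chr2:221572305-221572554, minus strand): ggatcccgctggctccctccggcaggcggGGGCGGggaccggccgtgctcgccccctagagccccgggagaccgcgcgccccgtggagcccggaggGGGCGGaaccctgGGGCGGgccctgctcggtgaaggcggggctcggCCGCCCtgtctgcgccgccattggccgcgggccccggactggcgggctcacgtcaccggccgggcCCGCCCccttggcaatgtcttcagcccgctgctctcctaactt

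The response element of EPHA2 began 51 bases before the start, and 1.65% of all 35116 RefSeq promoters of this length held the same letters. GC boxes were found 5 times before EFNA1, 5 times before the second start of EPHA4 and once in each of the other 3 runs, against 42.6% of all promoters with at least 1. TGAGTCA and TGACTCA (AP-1, in 4.2% of promoters), CCGGAAG (the ETS family, 8.52%), CACGTG (an E-box, 6.34%) and CATGTG (9.42%) were searched on both strands too and had no match in these 5 runs. The runs differed in base composition, from 43.2% G and C before the first start of EPHA4 to 78.0% before its second, beside a median of 58.0% over all promoters. Such matches describe the DNA and were not tied to any change in RNA.

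In DMSO, both lines held EPHA3 at the highest level of the 10 genes and EPHB4 next. In COLO858 the mean EPHA3 level was 54.6 FPKM, that of EPHB4 32.3 FPKM and that of EPHA2 12.6 FPKM, and these 3 did not overlap with each other. EFNB2 (4.19 FPKM) overlapped with EFNB1 (3.78 FPKM), and EFNA5 (2.29 FPKM) with EFNA1 (2.17 FPKM). EPHA4, EPHB1 and EPHB2 were under 1 FPKM. In MMACSF, EPHA3 averaged 24.5 FPKM, EPHB4 13.6 FPKM and EFNA1 8.20 FPKM, again without overlap, and the next pair, EFNA5 (3.72 FPKM) and EFNB2 (3.61 FPKM), overlapped. EPHA4 (2.22 FPKM), EPHA2 (2.20 FPKM) and EFNB1 (1.73 FPKM) each overlapped with its neighbour, and EPHB1 (0.472 FPKM) overlapped with EPHB2 (0.345 FPKM). The order moved with treatment: at 24 h in MMACSF, EFNA1 stood above EPHA3 without overlap (31.1 against 20.7 FPKM), and at 48 h EPHB4 and EPHA3 overlapped at the top in both lines. The lines came in separate tables whose scaling is not stated, so a level in one line is set beside the other as a description only.

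**Figure D1:**
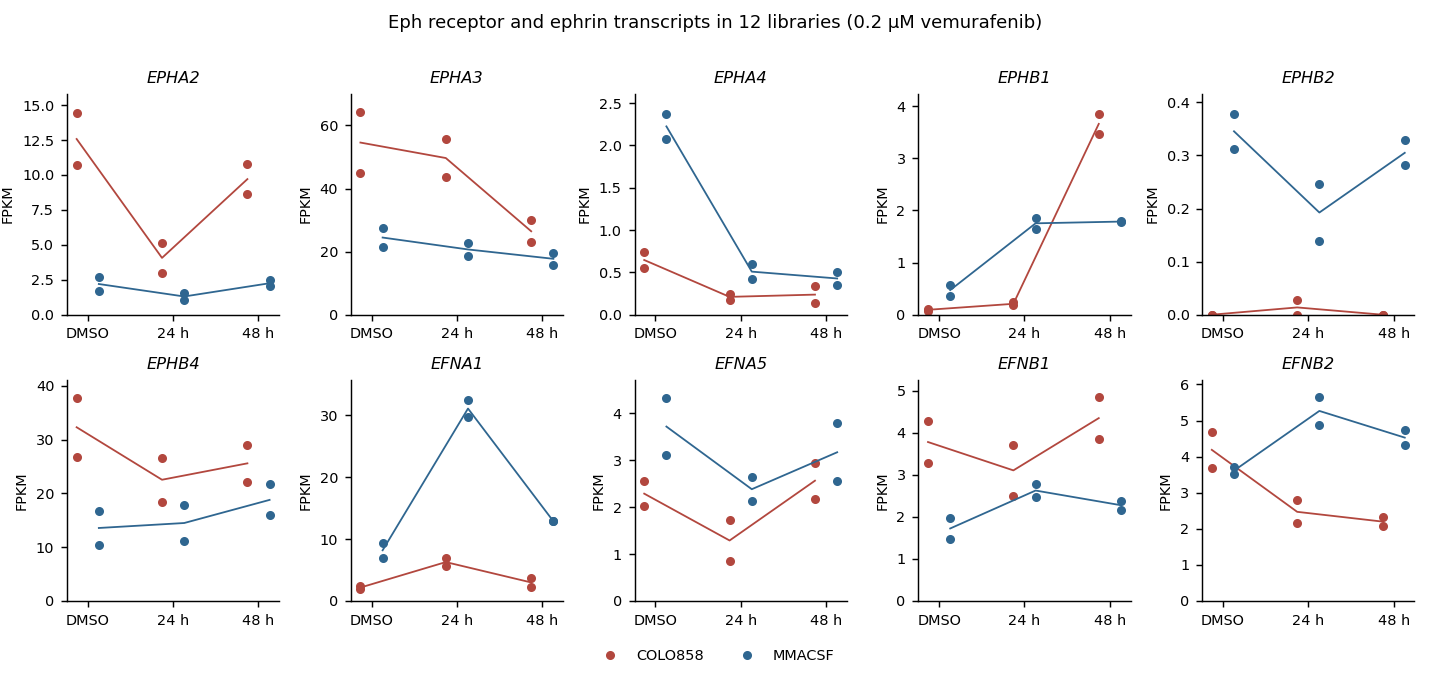
FPKM of the 10 transcripts (y axis, one scale per panel) in DMSO and after 24 h and 48 h in 0.2 μM vemurafenib (x axis), where each point is a library, red is COLO858, blue is MMACSF and lines join the means of 2 libraries. EPHB1 in COLO858 lies at 0.0803 to 0.239 FPKM until 24 h and at 3.47 and 3.85 FPKM at 48 h, EFNA1 peaks at 24 h in both lines, and EPHA4 in MMACSF drops from 2.07 and 2.38 FPKM in DMSO to under 1 FPKM in both treated groups.

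How the family responded to the drug was tested with limma, 1 fit per line of log2(FPKM + 1), in which a gene was called at a Benjamini-Hochberg adjusted p under 0.01 over all genes tested. A gene entered the test if the mean of any group reached 1 FPKM, which left 8 members in COLO858 (EPHA4 and EPHB2 were too low) and 9 in MMACSF (EPHB2 was too low). Genes near this minimum can enter only through the groups where they are high. Among the members this held for EPHB1, through 48 h in COLO858 and both treated groups in MMACSF, and for EPHA4, through DMSO in MMACSF. Changes below are on the log2(FPKM + 1) scale, which understates the change of genes near or under 1 FPKM, and ± gives the standard error with n = 2 libraries per group. Replicate numbers were not modelled here, as the labels do not say what they pair. A fit with the number as a block called more members in most comparisons and is given at the end.

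Few of the 10 passed that test, and those that did were EPHB1, EFNA1 and EPHA4. In COLO858 at 24 h 0 of 8 tested members were called, beside 4.11% of all 12696 genes called higher and 5.71% lower (limma; 3 members had an unadjusted p under 0.05). At 48 h 1 of 8 was called, EPHB1, which was higher, beside 4.74% of all genes called higher and 4.73% lower. In MMACSF 1 of 9 was called at 24 h, EFNA1, which was higher, where 2.22% of 12599 genes were called higher and 3.60% lower. At 48 h 1 of 9 was called, EPHA4, which was lower, where 3.42% were called higher and 5.41% lower. A single call among so few members cannot be read as a share that differs from the background. The median change of the tested members was -0.37 and -0.10 at 24 h and 48 h in COLO858, against 0.06 and -0.01 over all genes tested, and 0.09 and 0.26 in MMACSF, against 0.07 and 0.06.

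With 2 libraries against 2, groups that do not overlap are common. In COLO858 the treated and DMSO libraries did not overlap for 6 of 8 tested members at 24 h and for 3 of 8 at 48 h, where 63.1% and 61.3% of all tested genes did not overlap. In MMACSF this held for 7 of 9 and 6 of 9 members, beside 59.8% and 64.5% of all tested genes. An exact permutation test of 2 libraries against 2 cannot go below p = 0.333, so the limma fit across all genes is the only test of single members given here.

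**Figure D2:**
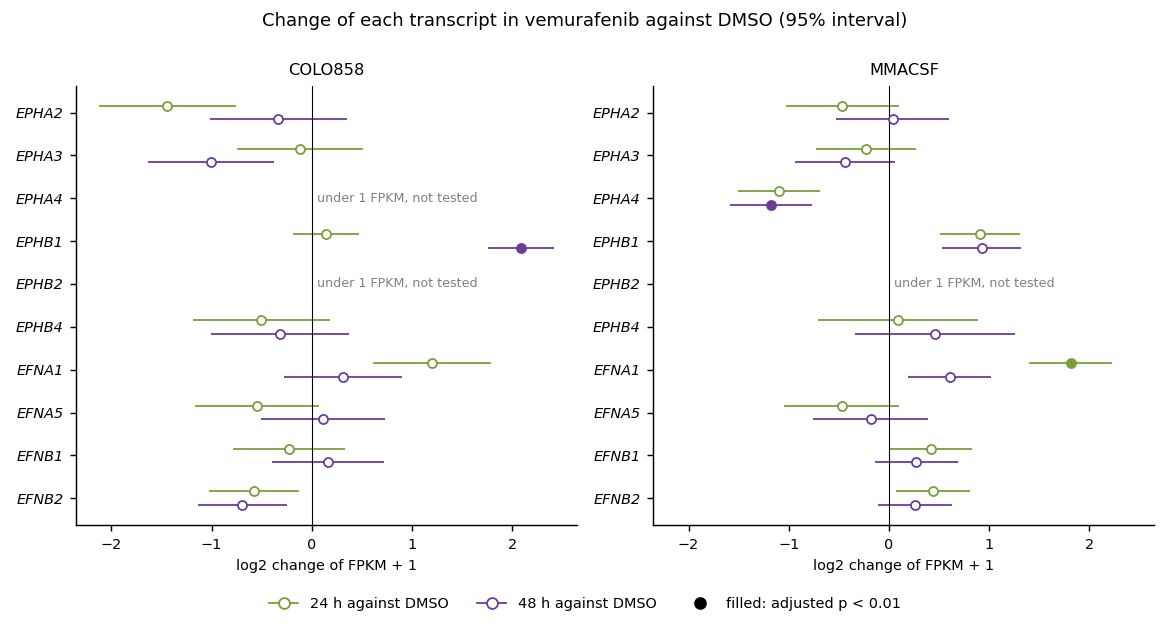
Log2 change of FPKM + 1 against DMSO (x axis) for each transcript (y axis) in COLO858 (left) and MMACSF (right), at 24 h (green) and 48 h (purple), with 95% intervals of the limma fit. The 3 filled points passed an adjusted p of 0.01: EPHB1 at 48 h in COLO858 (2.09), EFNA1 at 24 h in MMACSF (1.82) and EPHA4 at 48 h in MMACSF (-1.18).

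Among the receptors, EPHB1 changed most. It encodes a receptor for B-type ephrins that is known from axon guidance, and the gene lies at hg19 chr3:134514102-134979309 on the plus strand, where a lncRNA on the same strand shares 346 of its exonic bases. In COLO858, EPHB1 was 0.0803 and 0.108 FPKM in DMSO, 0.178 and 0.239 FPKM at 24 h, and 3.47 and 3.85 FPKM at 48 h. Both 48 h libraries were far above the other 4, and the 24 h libraries also lay above DMSO without overlap, though all 4 of these values were under 0.25 FPKM. Against DMSO, EPHB1 rose by 2.09 ± 0.13 at 48 h (limma, adjusted p = 0.00110), and the ratio of the group means without a pseudocount was 38.9. In this line EPHB1 entered the test only through the 48 h group, where it was high, and the ratio rests on a DMSO mean of 0.094 FPKM. At 24 h the change was 0.14 ± 0.13 (adjusted p = 0.458). From 24 h to 48 h EPHB1 rose by 1.95 ± 0.13 (adjusted p = 0.00436), the single call among 8 members in that comparison, where 1.17% of all genes were called higher and 0.213% lower. The rise against DMSO kept its size when 1 library was left out (2.03 to 2.15), with adjusted p from 0.00740 to 0.0101, and it was just over the threshold without DMSO replicate 1 and without DMSO replicate 2. The rise from 24 h to 48 h was no longer called without any 1 of its 4 libraries (adjusted p 0.0221 to 0.0297), nor when the 2 groups alone set the spread (0.0141).

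In MMACSF the same receptor followed another course. EPHB1 was 0.579 and 0.365 FPKM in DMSO, 1.86 and 1.64 FPKM at 24 h, and 1.78 and 1.79 FPKM at 48 h. The 4 treated libraries stood above both DMSO libraries and close to each other. The change of 0.91 ± 0.16 at 24 h and 0.92 ± 0.16 at 48 h missed the threshold (limma, adjusted p = 0.0174 and 0.0138), and the ratios of means were 3.72 and 3.79. From 24 h to 48 h the change was 0.02 ± 0.16, and 0 of 9 members were called in that comparison (limma; 1 had an unadjusted p under 0.05), where 0.111% of all genes were called in each direction.

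EPHA2 encodes the EphA receptor that has been linked to melanoma invasion, and ligand binding and ligand-free signaling of this receptor are known to have opposed effects. It lies at hg19 chr1:16450832-16482564 on the minus strand. In COLO858, EPHA2 was 14.4 and 10.7 FPKM in DMSO, 5.11 and 3.02 FPKM at 24 h, and 10.8 and 8.63 FPKM at 48 h. Both 24 h libraries lay below the other 4, and the 48 h libraries overlapped with DMSO. The 24 h change of -1.44 ± 0.27 did not pass (limma, adjusted p = 0.0180), nor did the 48 h change of -0.34 ± 0.27 (adjusted p = 0.412) or the change of 1.10 ± 0.27 from 24 h to 48 h (adjusted p = 0.0900). With the replicate number as a block, the first and the last of these 3 were called (limma, adjusted p = 0.000704 and 0.00335). In MMACSF, EPHA2 was 2.68 and 1.71 FPKM in DMSO, 1.57 and 1.04 FPKM at 24 h, and 2.47 and 2.03 FPKM at 48 h. The 24 h libraries were again the lowest, by less, with a change of -0.47 ± 0.22 (adjusted p = 0.202) and then 0.04 ± 0.22 at 48 h (adjusted p = 0.918).

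EPHA3 and EPHB4 were the most abundant of the 10 in DMSO in both lines. EPHA3, a receptor with high affinity for EFNA5 (hg19 chr3:89156771-89531284, plus strand), was 44.8 and 64.4 FPKM in COLO858 in DMSO, 43.6 and 55.8 FPKM at 24 h, and 23.0 and 29.9 FPKM at 48 h. The 48 h libraries were the lowest and overlapped with neither other group, and the change against DMSO was -1.01 ± 0.25 (limma, adjusted p = 0.0385), which did not pass. At 24 h it was -0.12 ± 0.25 (adjusted p = 0.749), and from 24 h to 48 h -0.89 ± 0.25 (adjusted p = 0.123). In MMACSF, EPHA3 was 21.3 and 27.6 FPKM in DMSO, 18.5 and 22.8 FPKM at 24 h, and 15.8 and 19.7 FPKM at 48 h. The groups at 24 h and DMSO overlapped, and the changes were -0.23 ± 0.20 (adjusted p = 0.458) and -0.44 ± 0.20 (adjusted p = 0.166). EPHB4, the receptor for EFNB2 that is best known from the parting of arteries and veins (hg19 chr7:100400187-100425145, minus strand, with 69 exonic bases shared with SLC12A9 on the other strand), was 37.8 and 26.8 FPKM in COLO858 in DMSO, 26.7 and 18.4 FPKM at 24 h, and 29.1 and 22.1 FPKM at 48 h. In MMACSF, EPHB4 was 16.7 and 10.5 FPKM in DMSO, 17.9 and 11.1 FPKM at 24 h, and 21.7 and 15.9 FPKM at 48 h. Treated and DMSO libraries overlapped, except for the 24 h libraries of COLO858, which lay just below DMSO. The log2 differences of EPHB4 from DMSO were -0.50 ± 0.27 and -0.32 ± 0.27 in COLO858, then 0.09 ± 0.32 and 0.46 ± 0.32 in MMACSF. Their adjusted p ran from 0.229 to 0.876 (limma). The 95% interval reached from -1.19 to 0.18 for the first of these differences and from -0.34 to 1.26 for the last. Each treated COLO858 library was below the DMSO library of its number. With the replicate number as a block, both COLO858 differences were called (limma, adjusted p = 0.00236 and 0.00881).

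EPHA4 binds ephrins of both classes and is used in the nervous system to repel growing axons. The gene lies at hg19 chr2:222282747-222438922 on the minus strand, and a lncRNA on the other strand shares 353 of its exonic bases. In MMACSF, EPHA4 was 2.07 and 2.38 FPKM in DMSO, 0.419 and 0.598 FPKM at 24 h, and 0.351 and 0.505 FPKM at 48 h. All 4 treated libraries were under 1 FPKM and both DMSO libraries above 2 FPKM. EPHA4 fell by 1.18 ± 0.16 at 48 h (limma, adjusted p = 0.00802), and the mean in DMSO was 5.2 times that at 48 h. In this line EPHA4 entered the test only through DMSO, the group in which it was high. The 24 h change of -1.10 ± 0.16 narrowly missed the threshold (adjusted p = 0.0116), with a ratio of 4.37 between the means. The 48 h call was lost without any 1 of its 4 libraries (adjusted p 0.0350 to 0.0508), with a pseudocount of 0.1 FPKM (change of -2.15, adjusted p = 0.0154), and when its 2 groups alone set the spread (0.0131). The 24 h change was called after median-ratio rescaling (adjusted p = 0.00761), with no expression minimum (0.00932) and without the mean-variance trend (0.00879). In COLO858 the gene was under the test's minimum: EPHA4 was 0.547 and 0.745 FPKM in DMSO, 0.178 and 0.244 FPKM at 24 h, and 0.133 and 0.342 FPKM at 48 h. The 4 treated libraries were below both DMSO libraries there too.

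EPHB2, a receptor of intestinal crypts and axon tracts (hg19 chr1:23037332-23247993, plus strand), was too low to test. It was listed at 0 in 5 of the 6 COLO858 libraries and at 0.0274 FPKM in 24 h replicate 1. In MMACSF, EPHB2 was 0.378 and 0.313 FPKM in DMSO, 0.139 and 0.246 FPKM at 24 h, and 0.328 and 0.282 FPKM at 48 h.

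Among the 4 ligands of the set, EFNA1 changed most at 24 h. It encodes the A-type ephrin that serves as the main partner of EPHA2, and the gene lies at hg19 chr1:155100352-155107375 on the plus strand, downstream of EFNA4 (chr1:155036213-155042029) and EFNA3 (chr1:155051313-155060014). In MMACSF, EFNA1 was 9.40 and 6.99 FPKM in DMSO, 29.7 and 32.5 FPKM at 24 h, and 12.9 and 12.9 FPKM at 48 h. Both 24 h libraries stood far above the rest, and the 48 h libraries lay between them and DMSO. EFNA1 rose by 1.82 ± 0.17 at 24 h (limma, adjusted p = 0.00329), with a ratio of means of 3.80. At 48 h the change against DMSO was 0.61 ± 0.17 (adjusted p = 0.0509), and from 24 h to 48 h it was -1.21 ± 0.17 (adjusted p = 0.0855). The 24 h call was lost without any 1 of its 4 libraries (change 1.63 to 2.01, adjusted p 0.0162 to 0.0298) and when its 2 groups alone set the spread (0.0109).

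In COLO858, EFNA1 was 2.42 and 1.92 FPKM in DMSO, 6.93 and 5.65 FPKM at 24 h, and 2.26 and 3.72 FPKM at 48 h. Its 24 h libraries were again the highest, and the 48 h libraries overlapped with DMSO. The change of 1.20 ± 0.23 at 24 h did not pass (limma, adjusted p = 0.0198), nor did those of 0.31 ± 0.23 at 48 h (adjusted p = 0.375) and -0.89 ± 0.23 from 24 h to 48 h (adjusted p = 0.106). The 24 h groups in which EFNA1 was highest were those in which EPHA2 was lowest, in both lines, and the mean of EFNA5 was lowest there too. At 24 h EFNA1 stood at 1.20 and EPHA2 at -1.44 relative to DMSO in COLO858, beside 1.82 and -0.47 in MMACSF, all against the same DMSO libraries of the line.

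The other A-type ligand, EFNA5, is known for the topographic maps of the visual system (hg19 chr5:106712595-107006638, minus strand). EFNA5 was 2.03 and 2.55 FPKM in COLO858 in DMSO, 0.848 and 1.73 FPKM at 24 h, and 2.18 and 2.95 FPKM at 48 h. In MMACSF, EFNA5 was 3.12 and 4.32 FPKM in DMSO, 2.12 and 2.64 FPKM at 24 h, and 2.55 and 3.79 FPKM at 48 h. The 24 h libraries lay below DMSO without overlap in both lines, and the 48 h libraries overlapped with DMSO. None of the changes passed (limma, adjusted p 0.162 to 0.773). In COLO858 the values for EFNA5 were -0.55 ± 0.25 at 24 h and 0.11 ± 0.25 at 48 h, and the MMACSF values were -0.47 ± 0.23 and -0.18 ± 0.23.

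Without a call in the main fits, for either line or for the difference between them, the B-type ligand EFNB2 was below DMSO in treated COLO858 and above DMSO in treated MMACSF. It is the transmembrane partner of EPHB4 and also binds EPHA4, and lies at hg19 chr13:107142093-107188010 on the minus strand, with 1822 exonic bases shared with a lncRNA on the other strand. In COLO858, EFNB2 was 3.69 and 4.68 FPKM in DMSO, 2.15 and 2.79 FPKM at 24 h, and 2.08 and 2.32 FPKM at 48 h. All 4 treated libraries were below DMSO, with changes of -0.58 ± 0.18 (limma, adjusted p = 0.0671) and -0.69 ± 0.18 (adjusted p = 0.0426). In MMACSF, EFNB2 was 3.51 and 3.72 FPKM in DMSO, 4.87 and 5.66 FPKM at 24 h, and 4.74 and 4.31 FPKM at 48 h. Here all 4 treated libraries were above DMSO, with changes of 0.44 ± 0.15 (adjusted p = 0.0934) and 0.26 ± 0.15 (adjusted p = 0.250). EFNB1, the other transmembrane ligand and the gene of craniofrontonasal syndrome (hg19 chrX:68048864-68062003, plus strand), was 4.28 and 3.29 FPKM in COLO858 in DMSO, 3.72 and 2.50 FPKM at 24 h, and 4.85 and 3.86 FPKM at 48 h. In MMACSF, EFNB1 was 1.97 and 1.48 FPKM in DMSO, 2.47 and 2.79 FPKM at 24 h, and 2.38 and 2.18 FPKM at 48 h. In COLO858 both treated groups overlapped with DMSO, the 48 h libraries lay above the 24 h ones, and the treated MMACSF libraries lay above DMSO. The log2 differences of EFNB1 from DMSO were -0.23 ± 0.22 and 0.16 ± 0.22 in COLO858, then 0.42 ± 0.17 and 0.27 ± 0.17 in MMACSF, with adjusted p from 0.136 to 0.629. As these are bulk samples, fewer cells that carry a transcript and less of it per cell cannot be told apart for any of the 10 genes.

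To ask whether the lines responded differently, the change in COLO858 minus that in MMACSF was tested as an interaction over all 12 libraries, with 9 members among 13595 genes. EPHB1 was the single member called. At 48 h its change against DMSO was larger in COLO858 by 1.17 ± 0.16 (limma, adjusted p = 0.00198), where 4.19% of all genes had a called difference of this sign and 3.30% of the other. Between 24 h and 48 h the difference was 1.93 ± 0.16 (adjusted p = 0.000362), the single call among 9 members, where 2.46% and 0.508% of all genes were called. Both calls held with a pseudocount of 0.1 FPKM, no expression minimum, median-ratio rescaling, no trend and the replicate number as a block. With 1 library left out, the differences ranged from 1.06 to 1.27 and from 1.87 to 1.99. EPHB1 entered this test, too, only through treated groups in which it was high. At 24 h the sign was the other one, -0.76 ± 0.16 (adjusted p = 0.0217), and 0 of 9 members were called (limma; 5 had an unadjusted p under 0.05), where 1.78% of all genes were called higher and 1.93% lower.

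For the other members the difference between lines was not past the threshold. EFNB2 came nearest, with -1.02 ± 0.21 at 24 h (limma, adjusted p = 0.0200) and -0.95 ± 0.21 at 48 h (adjusted p = 0.0171). Its lines moved in opposite directions in all 8 treated libraries, and both differences were called after median-ratio rescaling (adjusted p = 0.00767 and 0.00735). EPHA4 differed by 0.66 ± 0.19 at 24 h (adjusted p = 0.0732) and 0.76 ± 0.19 at 48 h (adjusted p = 0.0291), on a scale on which the low COLO858 levels leave little room to fall. EPHA2 differed by -0.98 ± 0.37 at 24 h (adjusted p = 0.163), with a 95% interval of -1.81 to -0.14, and by -0.38 ± 0.37 at 48 h (adjusted p = 0.595). EFNA1 differed by -0.61 ± 0.29 at 24 h (adjusted p = 0.281), with an interval of -1.29 to 0.06, and by -0.29 ± 0.29 at 48 h (adjusted p = 0.605).

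**Figure D3:**
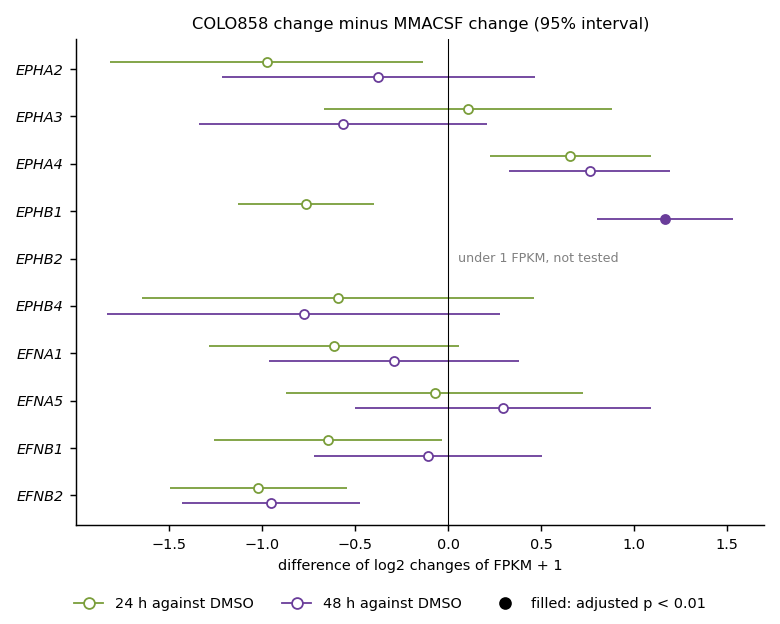
Change in COLO858 minus change in MMACSF (x axis, log2 of FPKM + 1, with 95% intervals) for each transcript (y axis) at 24 h (green) and 48 h (purple). EPHB1 at 48 h (1.17) is the single filled point, and EFNB2 lies near -1 at both times (-1.02 and -0.95).

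The other 12 genes of the family were looked at in the same way. EPHA1, EPHA6, EPHA7, EPHA8 and EPHA10 were under 1 FPKM in all 12 libraries. Of the other 7, 5 were tested in COLO858 and 7 in MMACSF, and 0 were called in either line at 24 h or 48 h (limma). An unadjusted p under 0.05 was found for 2 in each COLO858 comparison, and for 3 and 2 in MMACSF. Of all genes, 4.11% were called higher and 5.71% lower at 24 h in COLO858, and 4.74% and 4.73% at 48 h. In MMACSF these shares were 2.22% and 3.60%, then 3.42% and 5.41%. So few genes cannot tell 0 calls from these shares. EPHB3, a receptor related to EPHB2, was 13.7 and 9.12 FPKM in COLO858 in DMSO, 36.6 and 27.0 FPKM at 24 h, and 31.8 and 22.1 FPKM at 48 h. All 4 treated libraries were above DMSO, with changes of 1.42 ± 0.29 (adjusted p = 0.0223) and 1.18 ± 0.29 (adjusted p = 0.0374), while EPHB3 stayed between 0.629 and 1.24 FPKM in MMACSF.

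EPHB6, a receptor without kinase activity, was 0.810 and 0.738 FPKM in MMACSF in DMSO, 2.50 and 2.33 FPKM at 24 h, and 1.80 and 1.99 FPKM at 48 h, and was at most 0.0354 FPKM in COLO858. Its changes in MMACSF were 0.95 ± 0.15 (limma, adjusted p = 0.0123) and 0.71 ± 0.15 (adjusted p = 0.0225). In this line EPHB6 entered the test only through the treated groups, where it was high. EFNB3, the third transmembrane ligand, was 2.00 and 1.45 FPKM in MMACSF in DMSO, 4.45 and 4.11 FPKM at 24 h, and 4.57 and 4.59 FPKM at 48 h. Both pairs of treated libraries were above DMSO, with changes of 0.96 ± 0.16 (adjusted p = 0.0157) and 1.04 ± 0.16 (adjusted p = 0.0106), and EFNB3 was 3.81 to 4.96 FPKM in COLO858. EPHA5 lay at 1.28 to 2.38 FPKM in MMACSF and under 1 FPKM in COLO858. EFNA2 ranged from 0.31 to 2.71 FPKM over both lines, EFNA3 from 1.90 to 11.1 FPKM and EFNA4 from 4.82 to 9.64 FPKM. In DMSO, at 24 h and at 48 h, mean EFNA4 was 5.38, 9.32 and 6.43 FPKM in COLO858, highest at 24 h as EFNA1 was. In MMACSF mean EFNA4 was 6.28, 8.31 and 9.22 FPKM. EFNA3 averaged 9.28, 5.69 and 4.70 FPKM in COLO858, and 2.48, 2.50 and 2.72 FPKM in MMACSF. For EFNA2 the means were 2.14, 1.31 and 1.16 FPKM in COLO858, and 0.622, 1.46 and 1.35 FPKM in MMACSF. EFNA3 and EFNA4 share exonic bases (853 and 189) with a read-through gene, so their counts may be split between them.

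**Figure D4:**
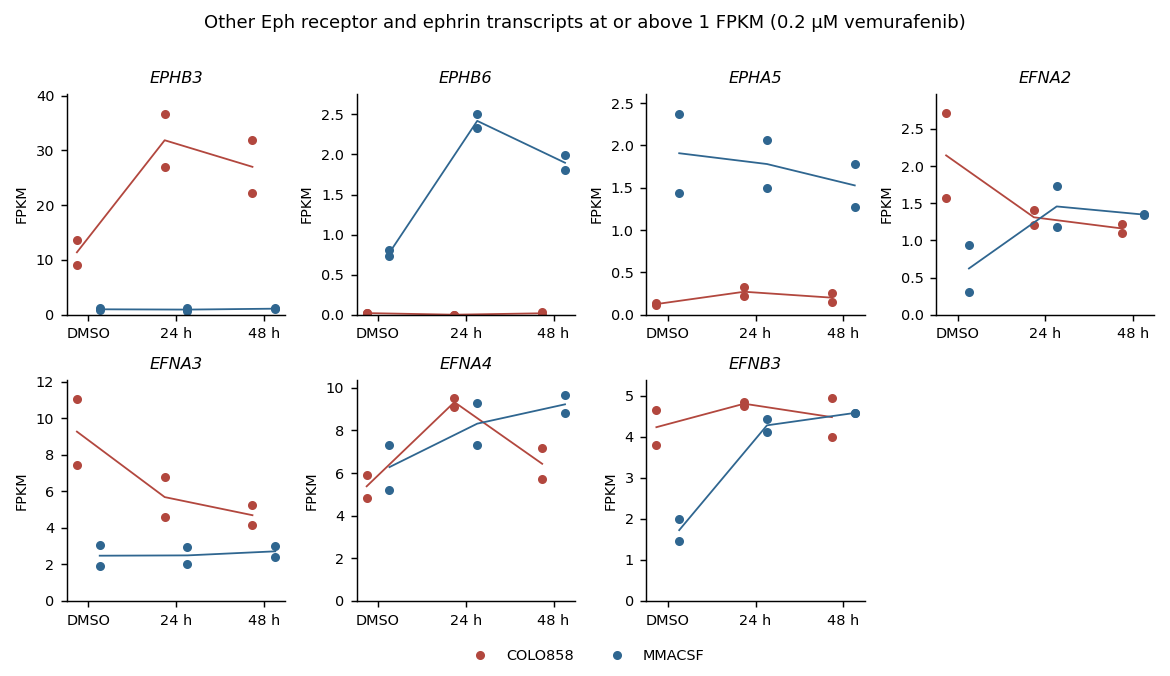
FPKM (y axis, one scale per panel) of the 7 other family members that reached a group mean of 1 FPKM in either line, in DMSO and after 24 h and 48 h in vemurafenib (x axis), with points for libraries and lines through the means of 2. EPHB3 is high in COLO858 alone (9.12 to 36.6 FPKM), whereas EPHB6 and EPHA5 pass 1 FPKM in MMACSF alone.

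Genes that act downstream of Eph receptors were counted from lists chosen by function. Beside these counts, the shares of all tested genes called higher and lower were 4.11% and 5.71% at 24 h and 4.74% and 4.73% at 48 h in COLO858, and 2.22% and 3.60%, then 3.42% and 5.41%, in MMACSF. Among 14 exchange factors and GTPase-activating proteins, 11 were tested per line. In COLO858 1 of 11 was called at 24 h and 2 of 11 at 48 h, all higher: CHN2, a Rac-directed GTPase-activating protein, at both times, and SIPA1L1 (1.15 ± 0.13 at 48 h, adjusted p = 0.00499). CHN2 (1.04 ± 0.14 at 48 h, adjusted p = 0.00746) was named after its value was seen, because the count is small. In this line CHN2 entered the test only through the treated groups, where it was high. Its means were 0.192 FPKM in DMSO, 2.00 FPKM at 24 h and 1.45 FPKM at 48 h. In MMACSF 0 of 11 were called at either time (limma; 2 and 1 had an unadjusted p under 0.05). Of 14 adaptors, 0 of 10 tested were called at 24 h in COLO858 (limma; 4 had an unadjusted p under 0.05) and 1 was lower at 48 h, GRB10 (-1.03 ± 0.15, adjusted p = 0.00950). In MMACSF 1 of 11 was higher and 1 lower at each time, ANKS1B (1.47 ± 0.16 at 48 h, adjusted p = 0.00393) and ANKS1A (-2.26 ± 0.11 at 48 h, adjusted p = 0.000436). These 2 genes encode SAM domain adaptors, which are known to bind Eph receptors. ANKS1A was 90.2 and 86.9 FPKM in MMACSF in DMSO, 14.3 and 14.8 FPKM at 24 h, and 17.6 and 17.7 FPKM at 48 h, and it was 9.25 to 11.4 FPKM in all 6 COLO858 libraries.

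Of 13 kinases and phosphatases that act with Eph receptors, 13 were tested in COLO858 and 12 in MMACSF. In COLO858 the phosphatase PTPRO, known to dephosphorylate Eph receptors, was lower at both times (-2.35 ± 0.21 at 48 h, adjusted p = 0.00260), and the kinase ABL2 was higher at 48 h (1.47 ± 0.21, adjusted p = 0.00908). In MMACSF the kinase ABL1 was higher at both times (0.90 ± 0.13 at 48 h, adjusted p = 0.00839) and 0 were lower (limma). PTPRO was listed at 0 in 5 of the 6 MMACSF libraries. Of 7 proteases that can shed ephrins or Eph receptors, 2 of 5 tested were higher in COLO858 at both times, MMP2 and MMP14, and 1 of 4 was higher in MMACSF at both times, MMP2, beside 4.11% and 4.74% of all genes called higher in COLO858 and 2.22% and 3.42% in MMACSF. MMP14 (1.39 ± 0.14 at 48 h in COLO858, adjusted p = 0.00325) was likewise named after its value was seen. MMP2 was 15.8 and 12.6 FPKM in COLO858 in DMSO, 41.8 and 38.1 FPKM at 24 h, and 73.6 and 67.6 FPKM at 48 h, a change of 2.24 ± 0.16 at 48 h (adjusted p = 0.00130), and its 48 h change in MMACSF was 1.88 ± 0.13 (adjusted p = 0.00119).

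Of 7 genes of reverse signaling through B-type ephrins, RGS3, whose product binds the tail of these ligands, was higher in COLO858 at both times (1.87 ± 0.12 at 48 h, adjusted p = 0.00115) as 1 of 6 tested, and 0 of 5 were called in MMACSF (limma; 0 and 1 had an unadjusted p under 0.05). Of the list genes named by rule among these signaling lists, ANKS1A kept its 48 h call in all 11 alternative analyses, whereas the others kept theirs in 3 (ABL1) to 8 (MMP2 in COLO858) of 11, with the highest adjusted p between 0.0140 and 0.0659, and leaving out any 1 of the 4 libraries ended these calls, except for MMP2 in COLO858 without DMSO replicate 1.

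Genes known to report the output of the MAPK pathway, which vemurafenib blocks, gave a measure of the drug's action in the same libraries. Of these 8, 7 were called lower in each line at each time, with median changes of all 8 of -2.45 and -2.14 in COLO858 and -2.39 and -1.87 in MMACSF at 24 h and 48 h. The largest 48 h fall was that of ETV4, an ETS transcription factor, in both lines (-5.55 ± 0.20, adjusted p = 0.000262, and -5.17 ± 0.18, adjusted p = 0.000345). PHLDA1 was the one without a call. The side-by-side plot shows 4 members with these genes, on the log2(FPKM + 1) scale.

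**Figure D5:**
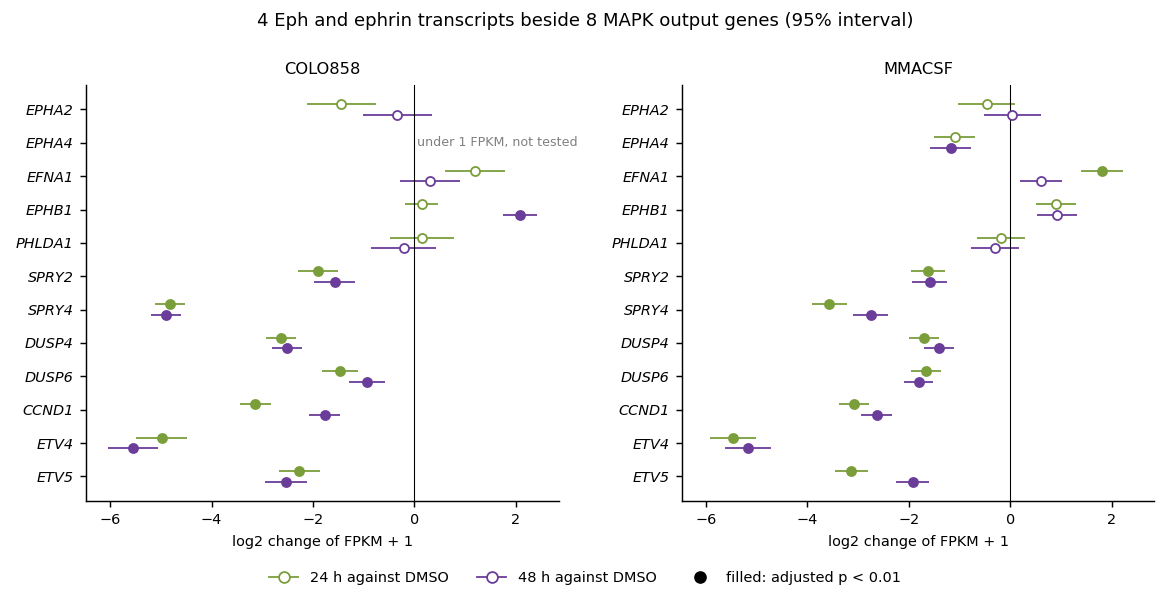
Log2 change of FPKM + 1 against DMSO (x axis, with 95% intervals) of EPHA2, EPHA4, EFNA1 and EPHB1 above 8 MAPK output genes (y axis) in COLO858 (left) and MMACSF (right), at 24 h (green) and 48 h (purple), filled where the adjusted p was under 0.01. ETV4 and SPRY4 lie between -2.76 and -5.55, and the lowest value of EPHA2 and EPHA4 is -1.44. EPHA4 was not tested in COLO858. In MMACSF in DMSO, EPHA2 and EPHA4 averaged 2.20 and 2.22 FPKM, so the + 1 limits how far they can fall. Without a pseudocount, the MMACSF log2 ratios at 24 h and 48 h were -2.13 and -2.38 for EPHA4, and -0.75 and 0.04 for EPHA2.

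Finally, genes were ranked by how closely they followed the 3 called members over the 12 libraries, on log2(FPKM + 1) with each line's mean removed, among 11700 genes tested in both lines. The points come from 6 groups only and share libraries and scaling, so Pearson's r is a description here. EPHB1 was followed most closely by STXBP6 (r = 0.99), SORBS2 (r = 0.98) and MAP4 (r = 0.97). For EPHA4 the closest were SNX9, SLC16A6 and VDR (r = 0.99 for each), and for EFNA1 they were ANGPTL7 (r = 0.95), NPR2 (r = 0.95) and CADPS (r = 0.94). Between members, the lowest r was that of EPHA3 with EPHB1 (-0.86). It was followed by EFNA1 with EFNA5 (-0.72), EPHA3 with EFNB1 (-0.69) and EFNA1 with EPHA2 (-0.68). EPHA3 and EFNA5 were higher in replicate 2 in 6 of 6 groups, and EPHB1 in 4 of 6. EFNB1 was higher in replicate 1 in 5 of 6 groups and EFNA1 in 4 of 6. The part of the replicate numbers in these r values was not tested. The highest r was that of EPHA2 with EPHB4 (0.70), 2 genes that were each higher in replicate 1 than in replicate 2 in 6 of 6 groups.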

How the data were processed

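RNA-seq of 12 libraries was analysed from the processed tables. Per the methods of the study, stranded mRNA libraries with ERCC spike-in gave single 50-base reads. The authors used TopHat with its defaults on hg19, then Cuffdiff on Galaxy. The authors deposited 1 table of FPKM per line under the name of normalized counts. The values are not whole and were taken as the FPKM that Cuffdiff gives. Versions, gene annotation, strand setting and scaling are not given in the sources used here. All 12 columns were used and 0 left out.

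Each line was fitted with limma 3.58.1 in R 4.3.3, as a model of 3 groups on log2(FPKM + 1) with eBayes moderation along the mean-variance trend. Testing was two-sided and took the genes for which any group averaged 1 FPKM or more, with Benjamini-Hochberg adjustment over all of them and a threshold of 0.01. Line differences came from a model of 6 groups. Scripts were tested on simulated data. Gene positions and exons shared with other genes are from GENCODE on GRCh37 (hg19), promoters from RefSeq on GRCh38.p14, and no coordinates were converted. Figures were drawn with matplotlib 3.10.9.

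The members, the lists and the searched motifs were chosen with earlier results of these data known. The text names every member, every other Eph or ephrin gene whose mean reached 1 FPKM in a group, the largest rise and fall past the threshold at 48 h in each reported list and line, and the 3 genes closest in pattern to each called member. The results of 1 list are not reported here. Alternatives were a pseudocount of 0.1 FPKM, no expression minimum, median-ratio rescaling, no trend, only the 4 libraries compared, a threshold of 0.05, the replicate number as a block, and each library left out in turn.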

Additional observations from a re-analysis of the deposited data

Results flagged for a closer look

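A difference between the cell lines in their response to vemurafenib, tested as an interaction over the 12 libraries, marked 4 results. The change of EPHB1 from DMSO to 48 h was larger in COLO858 than in MMACSF by 1.17 ± 0.16 on the log2(FPKM + 1) scale (limma, adjusted p = 0.00198), and its change from 24 h to 48 h was larger by 1.93 ± 0.16 (adjusted p = 0.000362). EPHB1 was higher than DMSO in both 48 h libraries of both lines, but the step after 24 h was seen in COLO858.

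EPHB6, no member of the set of 10, had smaller changes in COLO858 than in MMACSF, by -0.98 ± 0.13 at 24 h (limma, adjusted p = 0.00344) and by -0.71 ± 0.13 at 48 h (adjusted p = 0.00864). In COLO858 it was at most 0.0354 FPKM in all 6 libraries, which leaves almost no room for a fall on this scale. The differences lie close to the MMACSF changes alone, 0.95 at 24 h and 0.71 at 48 h. EPHB6 entered this test only through the treated MMACSF groups, where it was high (means of 2.42 and 1.90 FPKM, 0.774 FPKM in DMSO). With a pseudocount of 0.1 FPKM both differences lost their call (adjusted p = 0.0330 and 0.0819), and without any 1 of the 8 libraries in turn the adjusted p ranged from 0.00846 to 0.0166 at 24 h and from 0.0180 to 0.0346 at 48 h. Groups of 2 libraries were too small for a test of outlying libraries.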

How the results depend on the processing

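The signs of the 3 members called against DMSO were the same under all alternatives, and their calls depended on the setting. With the replicate number of the labels as a block, the number of members called was 3, 4 and 3 in COLO858 (24 h, 48 h, and 48 h against 24 h) instead of 0, 1 and 1, it was 3 and 3 in MMACSF at 24 h and 48 h instead of 1 and 1, and it was 4, 5 and 2 for the line differences instead of 0, 1 and 1. The members that gained a call against DMSO with the block were EPHA2 (adjusted p = 0.000704), EPHB4 (0.00236) and EFNB2 (0.00605) at 24 h and EPHA3 (0.000559), EPHB4 (0.00881) and EFNB2 (0.00371) at 48 h in COLO858, EPHA4 (0.00535) and EPHB1 (0.00829) at 24 h and EPHA3 (0.00511) and EPHB1 (0.00710) at 48 h in MMACSF. From 24 h to 48 h in COLO858 they were EPHA2 (0.00335) and EPHA3 (0.00198). The labels do not say what the numbers pair, and only 2 pairs exist. Across genes, the distances of libraries with 1 number from the means of their groups had r = 0.20 to 0.21 in COLO858 and 0.06 to 0.11 in MMACSF. EPHA2 and EPHB4 were higher in replicate 1 in 6 of 6 groups, and EPHA3, EPHA4 and EFNA5 in replicate 2. At a threshold of 0.05, the counts against DMSO were 2 and 3 in COLO858, 3 and 2 in MMACSF, and 2 and 3 for the line differences. With only the 4 libraries compared, the count was 0 in COLO858 from 24 h to 48 h and 0 at both times in MMACSF. In MMACSF at 24 h it was 2 with no expression minimum, 2 after rescaling and 2 without a trend, and at 48 h it was 0 with a pseudocount of 0.1 FPKM. Rescaling gave 1 and 2 members for the line differences at 24 h and 48 h, by adding EFNB2. Without 1 library, the count ranged from 0 to 1 in COLO858 at 48 h, and was 0 to 0 from 24 h to 48 h and in MMACSF at 24 h and 48 h, where a lone library was assumed to vary like the other groups.

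Changes near 0 turned sign without any call. Rescaling gave -0.018 for EPHB4 at 24 h and -0.023 for EPHA2 at 48 h in MMACSF. Without 1 library, EPHA3 at 24 h (-0.38 to 0.14) and EFNA5 at 48 h (-0.044 to 0.27) crossed 0 in COLO858, as did EPHB4 at 24 h (-0.23 to 0.41), EPHA2 at 48 h (-0.18 to 0.26) and EFNA5 at 48 h (-0.40 to 0.034) in MMACSF.

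The number of all genes called moved more. It was 1247, 1202 and 175 in COLO858 and 734, 1113 and 28 in MMACSF (24 h, 48 h, and 48 h against 24 h), and 505, 1017 and 403 for the line differences. The block gave 5719, 5549 and 2280 in COLO858, 3284 and 3790 at 24 h and 48 h in MMACSF, and 2396, 3434 and 1774 for the line differences. A threshold of 0.05 gave 3275, 3298 and 809, then 2561, 3038 and 53, then 1227, 2124 and 864. The 4 libraries alone gave 679, 493 and 35 in COLO858 and 235 and 576 against DMSO in MMACSF. From 24 h to 48 h in COLO858 it was 86 with no minimum and 271 after rescaling, and the line difference at 24 h had 336 with a pseudocount of 0.1 FPKM. Without 1 library, it ranged from 114 to 154, 137 to 151 and 29 to 43 in COLO858, from 58 to 72, 114 to 135 and 23 to 46 in MMACSF, and from 212 to 286, 558 to 706 and 184 to 258 for the line differences. Read depth is unknown, so what it limits for genes under 1 FPKM cannot be given, and 2 libraries per group limit every test.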
